A study of Mus musculus with 36 samples.

Results

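The hippocampus (HIP) of mice given the histone deacetylase inhibitor Cpd-60 was compared with that of mice given vehicle. Arrays were chosen by their labels, namely the HIP arrays of the Cpd-60 group (45 mg/kg, 3 arrays) and of the vehicle group (3 arrays), which are 6 of the 36 arrays of the series. All animals were male C57BL/6J mice by their labels, and the methods name 2 suppliers (The Jackson Laboratory, Taconic Farms), without saying which animal came from which, and give 10 weeks as the age at purchase, before a period of acclimation. Vehicle (saline, PEG-400 and DMSO) or Cpd-60 in vehicle was injected intraperitoneally once a day for 10 days, and tissue was taken 1 hour after the last injection. Vehicle mice therefore carried the injections as well. RNA from 2 mice was pooled for each Illumina MouseWG-6 array, so each group of 6 mice gave 3 pools, and a pool is called replicate 1, 2 or 3 here. The other arrays held the medial prefrontal cortex (PFC) and nucleus accumbens (NAc) of the same mice, and the same regions of mice given the inhibitors SAHA or CI-994.

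Cpd-60 is a selective inhibitor of HDAC1 and HDAC2, enzymes that remove acetyl groups from histones as part of the Sin3, NuRD and CoREST corepressor complexes. Loss of this activity raises histone acetylation and can increase or decrease transcription of individual genes. The HIP is rich in receptors for glucocorticoids, the adrenal stress hormones. The ligand-bound glucocorticoid receptor enters the nucleus and induces genes that include Sgk1, a kinase that controls ion transport, Tsc22d3, the leucine zipper protein GILZ, Fkbp5, a co-chaperone that restrains the receptor, and the clock gene Per1. The comparison addresses which transcripts differ in the HIP after repeated dosing with the compound.

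The 6 arrays were alike in raw signal. Median raw intensity was between 95.1 and 103.7, the 95th percentile between 644.8 and 839.6, and detection p was 0.01 or less for 38.0% to 39.7% of probes. Precision is limited by there being 3 arrays a group. Dissection was checked with field markers. Log2 intensity of C1ql2, a dentate gyrus gene, was 10.47 to 10.95 in these arrays and at most 7.38 in the PFC and NAc arrays, and Fibcd1, a CA1 gene, was 9.99 to 10.88 here and at most 8.25 there. The striatal gene Rgs9 reached 7.76 here against 11.17 or more in the NAc. Wfs1, also a CA1 gene, was higher in the NAc than in these arrays, and the probe of Neurod6 was detected in 0 of the 6 arrays. BeadChip 1 carried replicates 1 and 2 of both groups and BeadChip 2 carried replicate 3 of both. Cpd-60 replicate 3 stood apart from the other Cpd-60 arrays, with an SD of 0.145 around its group mean over probes against 0.0739 to 0.105 for the other 5 arrays, so values without it are given beside the results that change. Cpd-60 replicate 2 is named as mice 3 and 4 in its title and source, which were used, but as mice 1 and 2 in its description.

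Few transcripts differed by a large amount between Cpd-60 and vehicle in the HIP. Log2 intensities were compared with limma's moderated linear model in 22275 of 45281 probes, and 0 probes (0%) passed an adjusted p under 0.05 (Benjamini-Hochberg over all probes tested), the smallest being 0.564. The test named in the methods, analysis of variance followed by Tukey's HSD, also gave 0 after adjustment. At an unadjusted p under 0.05, 1348 probes (6.05%) passed, 632 higher (2.84%) and 716 lower (3.21%). The words rose and fell denote this unadjusted threshold in what follows, and none of these changes passed adjustment with all arrays in the fit. With a change of at least 1.2-fold, 193 probes rose (0.866%) and 205 fell (0.92%), together 1.79% of those tested, and by the methods' test 67 rose and 85 fell. The split depended on the scaling, since arrays scaled by their median gave 29 rises and 386 falls, with the median of all probes at -0.04. Of the 398, 8 rises and 3 falls reached 1.5-fold. All 3 Cpd-60 pools lay beyond all 3 vehicle pools for 12.6% of probes, and with 3 pools a group the smallest two-sided p of an exact permutation test is 0.1. Bulk tissue cannot tell fewer cells of a type from less RNA per cell.

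Leaving out Cpd-60 replicate 3 raised the counts over all probes. Without it 91 probes passed an adjusted p under 0.05 in limma, 49 higher and 42 lower, 65 of which were also among the 398, and 3127 probes passed the unadjusted threshold (6.66% of probes higher, 7.38% lower). Without Cpd-60 replicate 2 the unadjusted count fell to 879. No other single pool moved it by over 1.5 times. Leaving out any other HIP pool of the fit gave 0 adjusted calls. Cpd-60 replicate 3 was singled out by its spread in these same arrays, so calls made without it are not independent of the data.

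**Figure D1:**
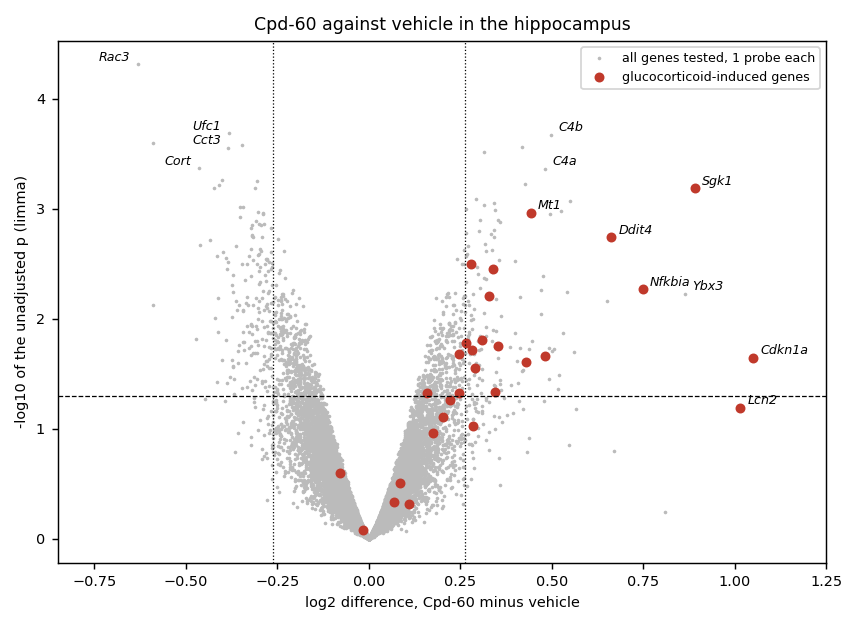
Log2 difference between Cpd-60 and vehicle (x axis) against -log10 of limma's unadjusted p (y axis) for 15934 genes, 1 probe each, in the HIP. Red points are the 29 tested genes of the glucocorticoid-induced list, of which 27 lie to the right of 0, the dashed line is unadjusted p = 0.05 and the dotted lines are 1.2-fold in each direction.

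Most of the genes known to be induced by glucocorticoids measured higher under Cpd-60. Of 30 such genes listed, 29 were tested, and 19 rose and 0 fell, where 2.8% of all genes tested with 1 probe each rose and 3.56% fell. The median log2 difference of the list was 0.29 and that of all genes was -0.00. At 1.2-fold 16 members rose (background 0.847%), and all 3 Cpd-60 pools lay above all 3 vehicle pools for 17 members (background 5.73%). The whole list was written with earlier results of these data known, so its counts are not independent of the data. The study also names Sgk1, Tsc22d3 and Sult1a1 from these arrays. By the methods' test with 1.2-fold 5 members rose, and 5 did so when arrays were scaled by their median instead of quantile normalized. With single pools left out the count was 12 (Cpd-60 replicate 1), 10 (Cpd-60 replicate 2), 10 (vehicle replicate 2) and 22 (Cpd-60 replicate 3), in the last case beside 6.5% of all genes that rose and 8.64% that fell.

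The kinase gene Sgk1 measured 9.88, 10.25 and 10.33 in the vehicle pools and 11.38, 11.19 and 10.57 in the Cpd-60 pools (log2 intensity). Its means were 10.15 ± 0.24 and 11.05 ± 0.43 (SD), a difference of 0.89 (SE 0.19, unadjusted p = 0.000652), or 1.85-fold. The groups did not overlap, and Cpd-60 replicate 3 lay closest to vehicle. Nfkbia, which encodes the inhibitor that holds NF-kB in the cytoplasm, was 7.55, 7.53 and 7.52 under vehicle and 8.65, 8.55 and 7.64 under Cpd-60. It rose by 0.75 (SE 0.22, unadjusted p = 0.00541). Replicates 1 and 2 were about 1 log2 unit above the vehicle mean, while replicate 3 was only just above the highest vehicle pool. A dim second probe of Nfkbia differed by 0.13 (SE 0.07). Ddit4, an inhibitor of mTORC1, was 8.53, 8.57 and 8.61 under vehicle and 9.36, 9.59 and 8.75 under Cpd-60, a rise of 0.66 (SE 0.16, unadjusted p = 0.00182) in which replicate 2 was the highest pool and replicate 3 was again the closest to vehicle.

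Cdkn1a, the cell cycle inhibitor p21, rose most of all genes tested, by 1.05 (SE 0.40, unadjusted p = 0.0228), but from pools that differed widely. Its vehicle values were 7.03, 7.01 and 7.08 and its Cpd-60 values 7.81, 9.32 and 7.13. A second probe of Cdkn1a rose by 0.80 (SE 0.28), the remaining probe differed by 0.58 (SE 0.29) with overlap and did not pass, and the call of the first was lost without vehicle replicate 2. Without Cpd-60 replicate 2 the difference of Cdkn1a was 0.43. Lcn2, the acute-phase protein lipocalin 2, was 6.50, 6.55 and 6.65 under vehicle and 6.85, 9.19 and 6.71 under Cpd-60, so that its difference of 1.01 (SE 0.49, unadjusted p = 0.0646) did not pass and rested on replicate 2. The metallothionein genes Mt1 and Mt2, whose products bind zinc and copper, rose by 0.44 (SE 0.10) and 0.48 (SE 0.18), and Mt2 lost its call without vehicle replicate 3 and without Cpd-60 replicate 2, where it was 0.26. Mt1 was among the brightest transcripts, at 13.00, 12.93 and 13.03 under vehicle and 13.51, 13.60 and 13.19 under Cpd-60.

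Tsc22d3 was 9.38, 9.31 and 9.23 under vehicle and 9.91, 10.01 and 9.29 under Cpd-60, a rise of 0.43 (SE 0.17, unadjusted p = 0.0248) in which replicate 3 lay within the vehicle range. A second, dimmer probe of Tsc22d3 rose by 0.60 (SE 0.13), and without Cpd-60 replicate 3 the first rose by 0.65. Fkbp5 was 7.79, 7.51 and 7.66 against 8.11, 8.12 and 7.78, and rose by 0.35 (SE 0.13). The groups overlapped in replicate 3 there too, as they did for Per1, which was 8.21, 8.15 and 8.11 against 8.61, 8.83 and 8.07 and rose by 0.35 (SE 0.15). The call of Per1 was lost in 8 of the 9 fits without 1 pool, and its value ran from 0.18 without Cpd-60 replicate 2 to 0.56 without Cpd-60 replicate 3. Sdc4, a cell surface proteoglycan, Txnip, an inhibitor of thioredoxin, and Gjb6, the astrocyte gap junction protein connexin 30, rose by 0.28, 0.34 and 0.33. All 3 of these had groups that did not overlap, but a second probe of Txnip differed by 0.15 (SE 0.10) and did not pass. Members that did not pass included Klf9, a transcription factor (0.18, SE 0.10), Errfi1, a feedback inhibitor of EGF receptors (0.29, SE 0.16), and Hif3a, at -0.08 (SE 0.07).

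The rise of the list differed between pools. Of the 29 members, 25 lay above all vehicle pools in Cpd-60 replicate 1, 26 in replicate 2 and 20 in replicate 3, against 27.3%, 27.1% and 29.3% of all genes in the same pools. The median distance of the members from their vehicle mean was 0.31, 0.47 and 0.12 in replicates 1, 2 and 3. Within BeadChip 1 the median difference between Cpd-60 and vehicle was 0.44, and within BeadChip 2, with 1 pool a group, it was 0.08. Cpd-60 replicate 3 is the only Cpd-60 array on BeadChip 2, so that pool and that BeadChip cannot be told apart. Summed over the list on the linear scale, normalized intensity was 21355 to 22691 in the vehicle pools and 24300 to 32616 in the Cpd-60 pools. Bright genes weigh most in such a sum, and the list includes Mt1, at log2 13.00, 12.93 and 13.03 under vehicle. Choroid plexus genes, which mark tissue that can be carried along in dissection, summed to 4872 to 14623 under vehicle and 7924 to 11718 under Cpd-60, so those ranges overlapped.

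**Figure D2:**
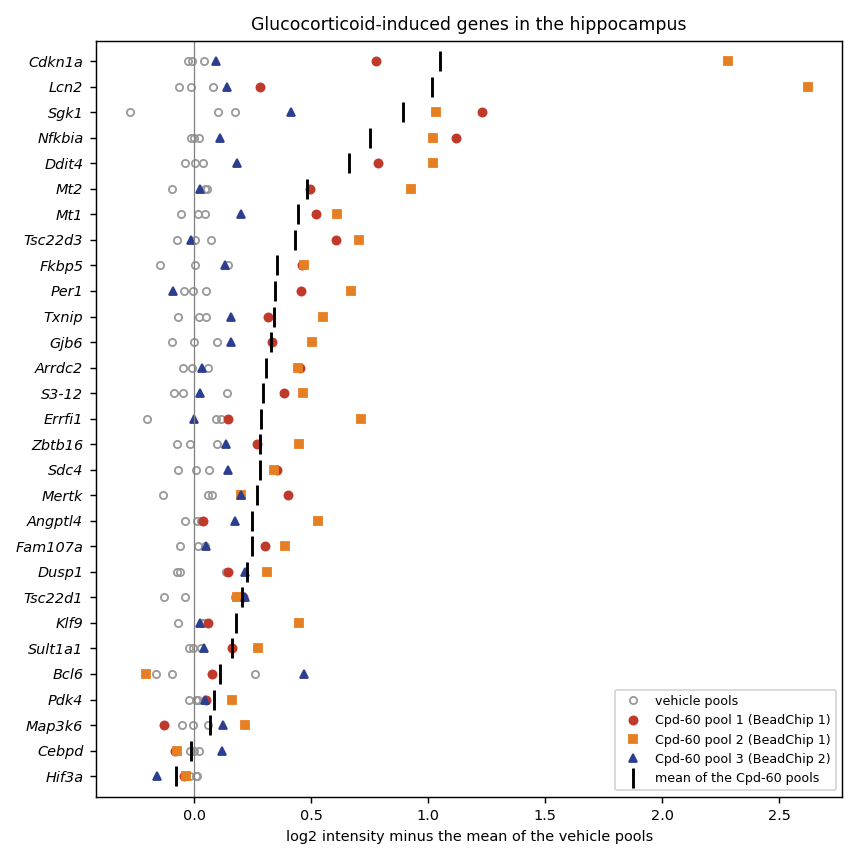
Log2 intensity minus the mean of the vehicle pools (x axis) for each of the 29 tested glucocorticoid-induced genes in the 3 vehicle pools (open circles) and the 3 Cpd-60 pools (filled symbols), with the mean of the Cpd-60 pools as a bar. Replicates 1 and 2 lie to the right of the vehicle pools for most genes, and replicate 3 (blue) lies close to them, with a median distance of 0.12.

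The receptor machinery moved in both directions. Of 11 tested genes, 2 rose and 1 fell (2.8% and 3.56% of all genes), and the median was -0.01. Fkbp5 is also on the glucocorticoid-induced list, so its rise is counted in both. Nr3c1, the glucocorticoid receptor itself, differed by -0.01 and Nr3c2, the mineralocorticoid receptor, by -0.07, and neither passed. Both were dim, at vehicle means of 6.70 and 6.84. Fkbp5 rose, as given above, and Hsd11b1, the enzyme that regenerates active corticosterone inside cells, rose by 0.25 (SE 0.09) on its brightest probe, while its other probes differed by 0.03 to 0.21 and did not pass. Fkbp4, a co-chaperone that promotes transport of the receptor, fell by 0.32 on the log2 scale (SE 0.11), although replicate 3 overlapped the vehicle pools.

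Promoters of these genes were read for the core of the glucocorticoid response element, since members of the list moved together. Of the 29 genes, 26 had promoters in the RefSeq table of GRCm38.p6 (250 bases before to 50 after a start, 43 promoters in all). The motif ACANNNTGT, which reads the same on both strands, stood in 18.6% of these promoters and in 4.38% of the 12362 promoters of all genes tested. The shorter TGTTCT, which can overlap it and was searched on both strands, stood in 20.9% and 12.9%. Other motifs searched on both strands were the cyclic AMP element TGACGTCA (4.65% and 2.94%), the E-box CACGTG (14% and 9.46%) and the GC box GGGCGG (55.8% and 59.9%). Genes with several starts have overlapping promoters, so these shares are a description only. The promoters of the 3 members with the largest differences that held ACANNNTGT are shown 5′ to 3′ with the match in capitals, to set the sequence beside the values given above, of which those of Sgk1 and Mt1 passed and that of Lcn2 did not. Lcn2 (chr2:32387690-32387989, minus strand) has its match 152 bases before the start, Sgk1 (chr10:21978422-21978721, plus strand, 1 of 6 promoters) 127 bases before, and Mt1 (chr8:94178839-94179138, plus strand) 92 bases before.
Lcn2: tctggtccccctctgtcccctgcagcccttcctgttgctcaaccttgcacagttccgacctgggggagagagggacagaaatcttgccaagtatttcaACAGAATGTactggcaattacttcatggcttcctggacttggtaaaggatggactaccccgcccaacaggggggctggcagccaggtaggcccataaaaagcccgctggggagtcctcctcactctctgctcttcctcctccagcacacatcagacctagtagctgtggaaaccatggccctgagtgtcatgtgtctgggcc
Sgk1: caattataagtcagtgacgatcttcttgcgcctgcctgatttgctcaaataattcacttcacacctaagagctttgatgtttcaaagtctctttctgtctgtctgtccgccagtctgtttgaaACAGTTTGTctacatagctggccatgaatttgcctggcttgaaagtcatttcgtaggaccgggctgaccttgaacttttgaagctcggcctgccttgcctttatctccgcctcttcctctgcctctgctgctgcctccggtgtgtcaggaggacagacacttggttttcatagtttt
Mt1: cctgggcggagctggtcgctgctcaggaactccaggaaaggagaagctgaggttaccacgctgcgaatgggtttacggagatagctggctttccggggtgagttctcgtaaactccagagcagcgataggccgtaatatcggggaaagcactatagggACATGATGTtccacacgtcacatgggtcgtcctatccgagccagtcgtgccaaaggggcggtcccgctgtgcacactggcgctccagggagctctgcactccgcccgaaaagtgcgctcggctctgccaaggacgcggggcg
Fkbp5, Per1, Nfkbia, Cdkn1a and Ddit4 had no ACANNNTGT in these windows, and neither had Tsc22d3, which held TGTTCT. This says only that the letters of ACANNNTGT are not in the windows read.

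Among the 15 largest rises with groups that did not overlap, several genes outside that list moved. Ybx3, a cold-shock domain protein that binds RNA, was 7.96, 8.14 and 7.92 under vehicle and 8.70, 9.63 and 8.28 under Cpd-60, and rose by 0.86 (SE 0.25, unadjusted p = 0.00596). Replicate 2 was the highest pool, as for Cdkn1a, and without it Ybx3 rose by 0.48. Ctgf, a secreted matrix protein, was 7.17, 7.69 and 7.36 against 8.29, 8.01 and 7.87 and rose by 0.65 (SE 0.20). Mfsd2, the lipid transporter of the blood-brain barrier, was 8.22, 8.16 and 8.21 against 8.65, 9.08 and 8.51 and rose by 0.55 (SE 0.12, unadjusted p = 0.000852). Htra1, a secreted protease, rose by 0.52 (SE 0.12), and its second probe by 0.40. Id2, an inhibitor of helix-loop-helix factors, rose by 0.47 (SE 0.15; 0.31 without vehicle replicate 3), and Cacng5, an auxiliary subunit of AMPA receptors and calcium channels, by 0.48 (SE 0.13). A dim second probe of Id2 differed by 0.01 (SE 0.07), and other Cacng5 probes by 0.37 (SE 0.09) and -0.01 (SE 0.06).

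Some rises were alike in all 3 pools. C4b, a complement component, was 7.16, 7.31 and 7.32 under vehicle and 7.60, 7.84 and 7.84 under Cpd-60, and rose by 0.50 (SE 0.09, unadjusted p = 0.000212). Replicate 3 was as high as replicate 2. C4a, its near-identical copy, was 7.79, 7.79 and 7.64 against 8.23, 8.30 and 8.14 and rose by 0.48 (SE 0.10), and since the copies are so alike their probes may share signal. The other tested C4b probes were dim and differed by 0.06 and -0.01. Rab26, a small GTPase of secretory vesicles, was 9.45, 9.41 and 9.78 against 9.92, 9.96 and 10.26 and rose by 0.50 (SE 0.11), with 0.38 on its second probe. Ccl21a, a chemokine with near-identical copies, rose by 0.49 (SE 0.18), a call lost without Cpd-60 replicate 1, without vehicle replicate 1 and without vehicle replicate 3. Of the 15 rises, 8 had a difference within BeadChip 2 under 50% of that within BeadChip 1. The other 7 were Ctgf, Htra1, C4b, Rab26, Ccl21a, C4a and Id2. Without Cpd-60 replicate 3, a pool picked out from these data, Sgk1, Ybx3, Nfkbia, Ddit4, Mfsd2, Cacng5 and Mt1 passed an adjusted p under 0.05 in limma. With all pools none of them did. A further 13 rises that met the same thresholds carry clone names and were only counted.

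**Figure D3:**
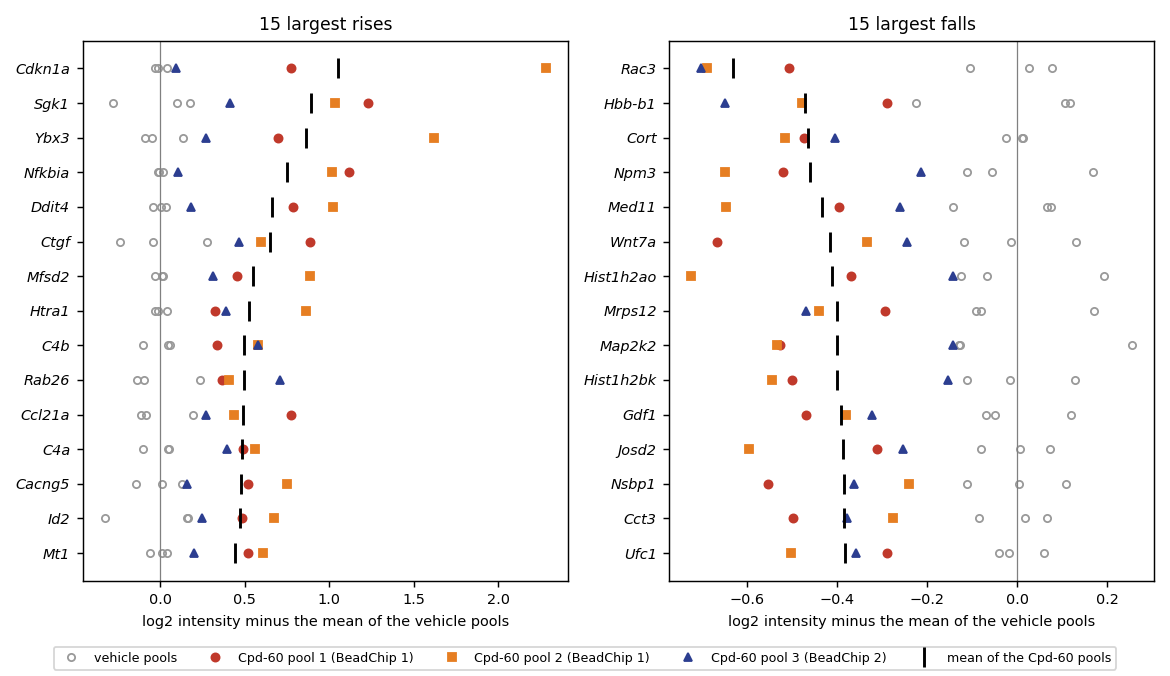
Log2 intensity minus the mean of the vehicle pools (x axis) in the 3 vehicle pools (open circles) and the 3 Cpd-60 pools (filled symbols) for the 15 largest rises and the 15 largest falls, with the mean of the Cpd-60 pools as a bar. Differences run from 0.44 to 1.05 for the rises and from -0.63 to -0.38 for the falls, and replicate 3 (blue) lies nearest to vehicle for many rises but not for Rac3, C4b or Rab26.

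Rac3, a small GTPase of neurites and spines in neurons, fell most. Its values were 7.86, 7.68 and 7.81 under vehicle and 7.28, 7.10 and 7.08 under Cpd-60, a difference of -0.63 (SE 0.10, unadjusted p = 4.88e-05). All Cpd-60 pools lay well under the vehicle pools, and the second Rac3 probe differed by -0.42 (SE 0.08). Cort, the neuropeptide cortistatin of inhibitory neurons, was 8.03, 7.99 and 8.03 against 7.54, 7.50 and 7.61 and fell by 0.47 on the log2 scale (SE 0.09, unadjusted p = 0.00043), with a second probe at -0.43. Npm3, a nucleolar histone chaperone, differed by -0.46 (SE 0.12; -0.04 on a dim second probe) and Med11, a Mediator subunit, by -0.43 (SE 0.11). Wnt7a, a secreted Wnt ligand, was 7.73, 7.59 and 7.48 against 6.93, 7.27 and 7.35 and differed by -0.42 (SE 0.11). In Wnt7a replicate 3 was the closest to vehicle.

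Further falls were smaller than that of Rac3. Ufc1, the conjugating enzyme of the UFM1 pathway, was 10.16, 10.14 and 10.24 under vehicle and 9.89, 9.68 and 9.82 under Cpd-60, and differed by -0.38 (SE 0.07, unadjusted p = 0.000207). Cct3, a subunit of the TRiC chaperonin, differed by -0.38 (SE 0.07), though its second probe differed by -0.02, and Mrps12, a mitochondrial ribosomal protein, by -0.40 (SE 0.08), with -0.17 (SE 0.11) on its second probe. Gdf1, a TGF-beta family ligand, Josd2, a deubiquitinase, and Nsbp1, a nucleosome-binding protein, each differed by -0.39. Map2k2, the kinase MEK2, differed by -0.40 (SE 0.15), with vehicle pools from 9.31 to 9.70. Its call was lost without Cpd-60 replicate 1, Cpd-60 replicate 2 or vehicle replicate 3. A dim second probe of Map2k2 differed by -0.07 (SE 0.08). Of the 15 falls 4 had a difference within BeadChip 2 under 50% of that within BeadChip 1, and Rac3, Npm3 and Hist1h2bk passed an adjusted p under 0.05 in limma without Cpd-60 replicate 3. A further 26 falls with clone names met the same thresholds. Of all genes, 1.09% fell at 1.2-fold, and for 6.82% all Cpd-60 pools lay below all vehicle pools.

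Hbb-b1, the beta chain of adult haemoglobin, was 12.55, 12.56 and 12.22 under vehicle and 12.15, 11.97 and 11.80 under Cpd-60, and differed by -0.47 (SE 0.16, unadjusted p = 0.0154). Its 11 tested probes share near-identical globin copies, and the call was lost without vehicle replicate 1 and without vehicle replicate 2. The 4 tested blood genes summed to 8378 to 9908 in the vehicle pools and 6280 to 7976 in the Cpd-60 pools, without overlap. That sum includes the bright Hbb-b1, which was picked for groups that did not overlap, so the sum is not independent of that choice. Hba-a1 differed by -0.25 and did not pass, and the erythroid genes Alas2 and Slc4a1 were near background at vehicle means of 6.92 and 6.66. The part of blood left in the tissue in the fall of Hbb-b1 was not tested.

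Of 21 tested class I HDACs and corepressor subunits, 4 rose and 0 fell (2.8% and 3.56% of all genes), with a median of 0.08. Not all belong to targets of Cpd-60, since the paper reports weaker inhibition of HDAC3 than of HDAC1 and HDAC2. Rbbp4, the histone-binding subunit of Sin3 and NuRD, was 7.08, 7.14 and 7.23 under vehicle and 7.44, 7.63 and 7.42 under Cpd-60 and rose by 0.34 (SE 0.08, unadjusted p = 0.000882), without overlap, and its other probes gave 0.24 and 0.06. Tbl1x, of the NCoR complex, Mta3, of NuRD, and Rcor3, of CoREST, rose by 0.28, 0.22 and 0.18, the last with its call lost in 6 of the 9 fits without 1 pool. Other probes of Tbl1x, Mta3 and Rcor3 differed by 0.12, 0.09 and 0.03 and did not pass. Hdac2 differed by -0.20 and Hdac3 by 0.08, and neither passed, and Hdac1 was not analysed here. Sin3a and Sin3b differed by -0.22 (unadjusted p = 0.0694) and -0.18 (unadjusted p = 0.0531). Of 9 class II and IV HDAC and Mef2 genes and 18 acetyltransferases and acetyl-lysine readers, 0 passed in either direction in limma at the unadjusted threshold.

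Histone genes gave more falls than rises. Of 22 tested, 4 fell and 1 rose (3.56% and 2.8% of all genes), and the median was -0.07. Hist1h2bk was 8.80, 8.66 and 8.56 under vehicle and 8.17, 8.13 and 8.52 under Cpd-60 and differed by -0.40 (SE 0.10, unadjusted p = 0.00247). Replicate 3 was just under the lowest vehicle pool. Hist1h2be, Hist1h2bc and Hist1h4h differed by -0.37, -0.36 and -0.26, and Hist1h2ao, outside that list, by -0.41, with the call lost without Cpd-60 replicate 2 or vehicle replicate 1. Replicated histone genes are close copies, so their probes may share signal. H3f3b, which encodes the replacement histone H3.3, was 10.17, 10.39 and 10.20 against 10.46, 10.84 and 10.43 and rose by 0.32 (SE 0.11; 0.19 without Cpd-60 replicate 2). Hist1h2bc lost its call in 3 of the 9 fits without 1 pool, with -0.21 without Cpd-60 replicate 2. Hist1h2be lost its call without Cpd-60 replicate 1 or 2 and without vehicle replicate 1 or 3. With Cpd-60 replicate 3 left out, 7 of the 22 fell and 3 rose, beside 8.64% and 6.5% of all genes.

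Cell cycle inhibitors and Gadd45 genes had 5 rises and 0 falls among 18 tested (2.8% and 3.56% of all genes), with a median of 0.14. Sesn1, a stress-induced regulator of mTORC1, was 9.51, 9.62 and 9.61 under vehicle and 9.79, 10.09 and 9.91 under Cpd-60 and rose by 0.35 (SE 0.08, unadjusted p = 0.00128). Gadd45g, a growth arrest gene, was 9.04, 9.02 and 9.14 against 9.32, 9.28 and 9.40 and rose by 0.27 (SE 0.06, unadjusted p = 0.00165). Both had all Cpd-60 pools above the vehicle pools, replicate 3 included, but other probes of Sesn1 differed by 0.20 (SE 0.10) and 0.08 (SE 0.16) and did not pass. Trp53inp1 and Tob1, which slow proliferation, rose by 0.25 and 0.15, and Cdkn1a was the remaining one. A dim second probe of Trp53inp1 differed by -0.07 (SE 0.12). Trp53inp1 lost its call in 3 of the 9 fits without 1 pool, with 0.14 without Cpd-60 replicate 2, and Tob1 in 4. Among 16 p53 targets, a list that shares genes with this one, 3 rose, and 2 of 3 tested metallothioneins rose. Cdkn1a, Mt1 and Mt2 are also on the glucocorticoid-induced list, so their rises are counted there as well.

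Genes of neuronal activity and plasticity gave few calls. Of 18 immediate early genes 0 rose and 2 fell (2.8% and 3.56% of all genes), Egr2 by 0.19 and Homer1 by 0.16 on the log2 scale, while Fos and Arc differed by 0.03 and 0.07 and did not pass. Of 8 neurotrophin genes 1 fell. This was Bdnf, the brain-derived neurotrophic factor, at 8.85, 8.91 and 8.79 under vehicle and 8.61, 8.54 and 8.65 under Cpd-60, a difference of -0.25 (SE 0.09, unadjusted p = 0.0145) without overlap, although 5 dimmer Bdnf probes differed by -0.03 to 0.07. Among 16 clock genes Per1, Gm129 and Rora rose (0.35, 0.45 and 0.32) and Tef fell by 0.21 on the log2 scale. Per1 is also counted on the glucocorticoid-induced list. Without Cpd-60 replicate 2 Gm129 was at 0.27 and did not pass, and among the 9 fits without 1 pool Egr2 and Homer1 lost their calls in 5 and Tef in 4.

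Of 18 glutamate receptor genes Gria2 and Grm5 rose by 0.22 and 0.23 and Grm7 fell by 0.20, of 19 calcium channel genes Cacng5, Cacnb2 and Cacnb4 rose (0.48, 0.21 and 0.20) and none fell, and of 8 GABA-A receptor genes 0 passed (2.8% of all genes rose and 3.56% fell). The other Gria2 probes differed by 0.17 and 0.00. Of 21 glutamatergic neuron genes 3 rose, namely Gria2, Itpka and Nptx1, with a median of 0.11 over the list. Itpka lost its call without Cpd-60 replicate 1 or 2 and without vehicle replicate 1 or 3. The interneuron list of 17 had 2 rises and 2 falls. Npy, the peptide neuropeptide Y, was 9.92, 9.96 and 9.88 under vehicle and 9.54, 9.70 and 9.69 under Cpd-60 and fell by 0.27 on the log2 scale (SE 0.07, unadjusted p = 0.00365). Cort, given above, was the other fall. Of the 17 members 12 lay above 0 and 5 below, with a median of 0.02. Calb2, the calcium buffer calretinin, rose by 0.56 (SE 0.21), but vehicle replicate 1, at 9.25, lay above Cpd-60 replicate 1, at 8.97. The difference of Calb2 was 0.86 without vehicle replicate 1 and 0.36 without vehicle replicate 2. Among the 9 fits without 1 pool, Nptx1 lost its call in 6 (0.13 without Cpd-60 replicate 2), Cacnb4 and Grm7 in 5 (0.11 and -0.13 without Cpd-60 replicate 1), Cacnb2 in 4 (0.14 without vehicle replicate 3) and Calb2 in 3.

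Markers of the cell types in the tissue gave 0 to 5 calls a list, where 2.8% of all genes rose and 3.56% fell. Of 20 hippocampal field genes 1 rose, Bok, by 0.26 (SE 0.08), and of 21 genes of tissue outside the HIP 1 rose, Ppp1r1b, by 0.30. Homeostatic astrocyte genes had 1 rise (Gjb6, also on the glucocorticoid-induced list) and 1 fall (Slco1c1, -0.31) of 19. Reactive astrocyte and acute-phase genes had 2 rises (C4b, and Stat3 at 0.18) and 1 fall (Hspb1, -0.32) of 15. Gfap, the astrocyte filament protein, was 10.79, 10.68 and 10.19 under vehicle and 11.24, 11.34 and 10.51 under Cpd-60, a difference of 0.48 (SE 0.22, unadjusted p = 0.0555) that did not pass. A second, dimmer probe of Gfap rose by 0.55 (SE 0.17, unadjusted p = 0.00782) with overlapping groups, and without Cpd-60 replicate 3 it rose by 0.77 (adjusted p = 0.0256 in limma). In each group replicate 3 was the lowest pool for the first probe. Among the 9 fits without 1 pool, Stat3 lost its call in 7 (0.11 without Cpd-60 replicate 2), Slco1c1 in 5 (-0.47 without vehicle replicate 3, where it passed) and Ppp1r1b in 3 (0.19 without Cpd-60 replicate 3).

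Of the 24 oligodendrocyte and myelin genes 4 fell (3.56% of all genes), and the median of the list was -0.05. Qdpr, which regenerates tetrahydrobiopterin, was 10.42, 10.33 and 10.38 under vehicle and 10.15, 10.05 and 10.08 under Cpd-60 and fell by 0.29 on the log2 scale (SE 0.08, unadjusted p = 0.00565), alike in all pools. Sox10, the lineage transcription factor, and the myelin lipid enzymes Fa2h and Ugt8a differed by -0.39, -0.38 and -0.27. Sox10 lost its call in 7 of the 9 fits without 1 pool, and differed by -0.25 without Cpd-60 replicate 2 and by -0.63 without Cpd-60 replicate 3. Fa2h lost its call in 4. Brain endothelial and pericyte genes had 2 rises (Mfsd2, and Slc2a1 at 0.30) and 2 falls (Itm2a at -0.35 and Egfl7 at -0.19) of 23. Microglia genes had 1 rise of 18, C1qa at 0.19, and 0 of 8 oligodendrocyte precursor and 0 of 14 choroid plexus genes passed at the unadjusted threshold in limma. Of 4 sex-linked genes Ddx3y rose by 0.21 with overlapping groups, and 0 of 2 genes that differ between C57BL/6 substrains passed. Among stress and metabolic genes 0 rose and 2 fell of 23 heat shock and chaperone genes (Hspb1 and Hspe1, -0.17), 1 of 17 cholesterol genes fell (Fdps, -0.24), and 2 of 14 cold-shock and RNA-binding genes rose, Ybx3 and Cirbp (0.44, SE 0.16). Of the 9 fits without 1 pool, Slc2a1 lost its call in 4 (0.20 without vehicle replicate 1, and 0.46 without vehicle replicate 3, where it passed), and C1qa and Cirbp in 3 (C1qa 0.12 without Cpd-60 replicate 1, Cirbp 0.29 without Cpd-60 replicate 2). Hspe1 lost its call without Cpd-60 replicate 1 or 3 and without vehicle replicate 1 or 2. Egfl7 lost its call without Cpd-60 replicate 1 or 2 and without vehicle replicate 3.

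**Figure D4:**
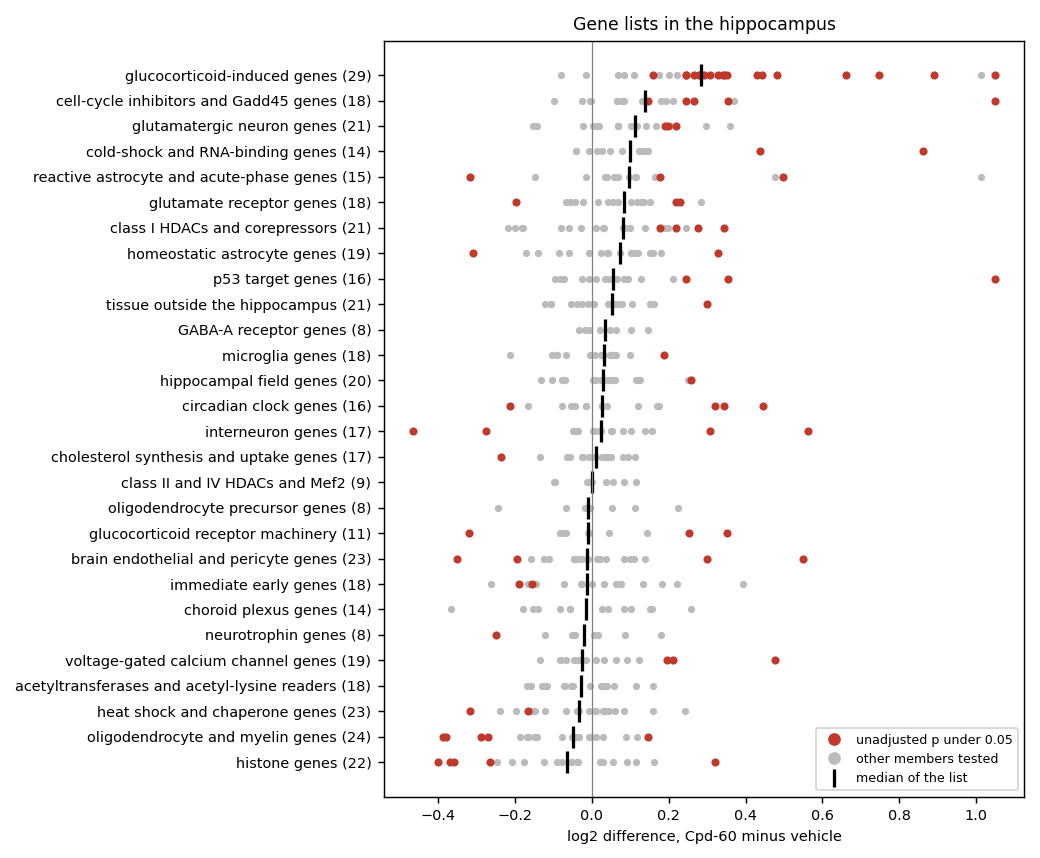
Log2 difference between Cpd-60 and vehicle in the HIP (x axis) for the members of lists of 8 or more tested genes, with the number tested in brackets. Red points passed an unadjusted p under 0.05, grey points did not, and the bar is the list's median, which is 0.29 for the glucocorticoid-induced genes and between -0.07 and 0.14 for the other lists.

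Of the genes the study names from its arrays, some moved in the HIP and others did not. Sgk1, Tsc22d3, Mfsd2, Cacng5 and Qdpr, given above, are among them, so their calls are not independent of that choice. Agxt2l1, a phosphoethanolamine lyase of astrocytes, was 7.14, 6.93 and 7.04 under vehicle and 7.85, 7.76 and 7.14 under Cpd-60, a rise of 0.54 (SE 0.16, unadjusted p = 0.00575) in which replicate 3 lay just under the highest vehicle pool. Sult1a1, a phenol sulfotransferase, rose by 0.16 (SE 0.07, unadjusted p = 0.0475), a call lost in 7 of the 9 fits without 1 pool (0.10 without Cpd-60 replicate 2). Igfbp5, an IGF-binding protein, differed by -0.09 (SE 0.10) on its brightest probe but by -0.35 (SE 0.07) and -0.19 (SE 0.08) on the others, so its probes disagree. Rock2, a kinase of the actin cytoskeleton, differed by 0.02 (SE 0.07) on its brighter probe, a sign that turned with median scaling, and by 0.24 (SE 0.08) on the other. Mef2c and Usp54 differed by -0.10 and 0.17 and did not pass. Per2 differed by -0.08 (SE 0.10) on its brighter probe, which did not pass, while its other probe fell by 0.16 on the log2 scale (SE 0.07) without overlap.

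The same compound was measured in the PFC and NAc of the same mice, so these arrays are not independent animals. Of 28 glucocorticoid-induced genes tested there, 15 rose and 0 fell in the PFC (2.39% and 2.51% of all genes) with a median of 0.30, and 11 rose and 0 fell in the NAc (1.7% and 2.54%) with a median of 0.32, beside 0.29 in the HIP. Whether the HIP differed from the mean of the other regions was tested with limma on 27 arrays, treating arrays of the same animals as a random block. It passed an unadjusted p under 0.05 for 302 of 18610 probes (1.62%) and an adjusted p for 0, and for 0 of the 28 list members (2.47% of probes for the HIP against the NAc alone). Members ranged in this difference from -0.29 to 0.55, with a median of -0.01.

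Rac3 was the named gene with the smallest p for that difference. It differed by -0.63 in the HIP, by -0.25 (SE 0.12) in the PFC and by -0.04 (SE 0.12) in the NAc. The HIP was thus lower by a log2 difference of -0.49 (SE 0.15, unadjusted p = 0.00384 in limma), which did not pass adjustment. C4b rose by 0.50 in the HIP and differed by 0.05 in the PFC and 0.17 in the NAc, a difference of 0.39 (SE 0.15, unadjusted p = 0.0196) that was lost without vehicle replicate 1, at 0.25, and without Cpd-60 replicate 3, at 0.33. Wnt7a, Gdf1, Cct3, Med11 and Hist1h2bk also passed the unadjusted threshold, with differences between -0.32 and -0.26. Without vehicle replicate 3 Med11 was at -0.18, and without Cpd-60 replicate 1 Wnt7a was at -0.17, past the threshold in neither case. Of the 15 rises 11 passed in the PFC and 4 in the NAc, where 2.39% and 1.7% of all genes rose. Of the 15 falls 5 and 4 passed, where 2.51% and 2.54% of all genes fell. The sign was that of the HIP for 15 and 14 of the rises and for 15 and 12 of the falls. These genes were picked by their HIP change in the same mice, and the share of all genes with the same sign was not computed.

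**Figure D5:**
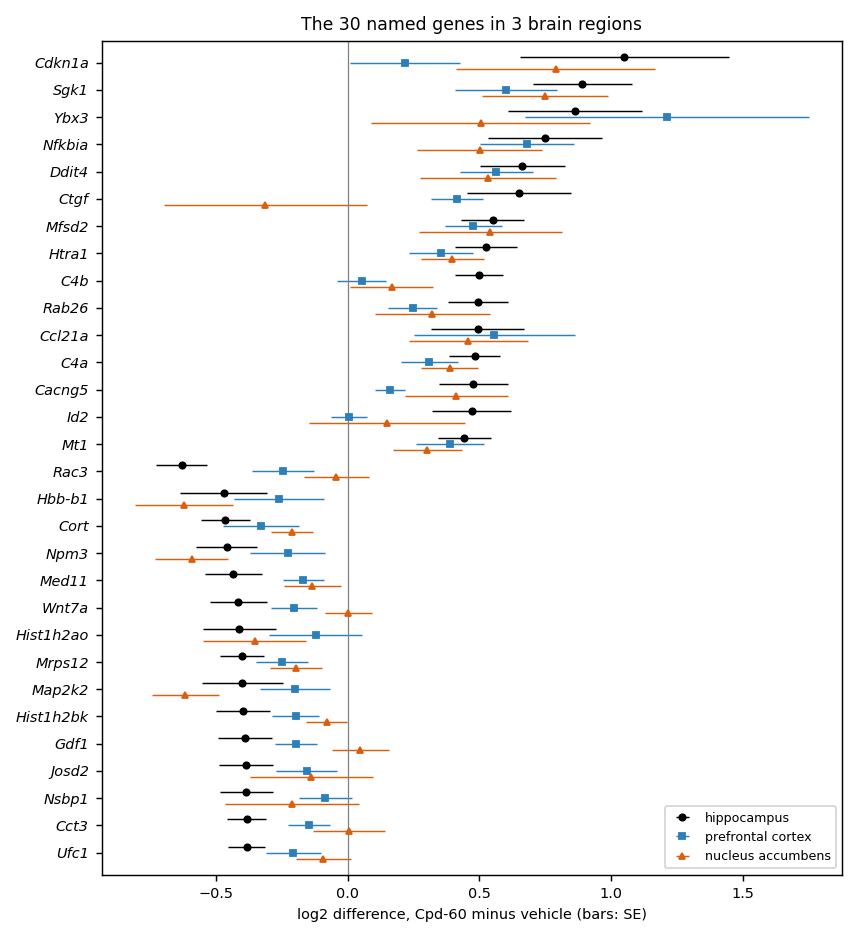
Log2 difference between Cpd-60 and vehicle (x axis, bars are SE) for the 30 named genes in the HIP, PFC and NAc, 3 pools a group. Sgk1, Nfkbia, Ddit4, Mfsd2 and Mt1 lie to the right of 0 in all 3 regions, while Rac3 lies at -0.63 in the HIP and at -0.04 in the NAc.

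The other inhibitors were given at other doses (SAHA at 25 mg/kg, CI-994 at 10 mg/kg) and share the vehicle arrays, so their HIP values are only set side by side. Of the 29 glucocorticoid-induced genes, 0 rose and 1 fell under SAHA (5.46% and 6.55% of all genes) and 0 rose and 1 fell under CI-994 (1.46% and 1.57%). Sgk1 differed by 0.02 under SAHA and -0.12 under CI-994, and Nfkbia by 0.08 and 0.12. C4b differed by 0.26 and 0.31, Rab26 by 0.33 and 0.27, Gdf1 by -0.32 and -0.38, and Josd2 by -0.32 and -0.43. Hbb-b1 differed by -0.42 and -0.83, and Rac3 by -0.26 and -0.13.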

How the data were processed

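The authors deposited raw intensity values of 45281 probes on each of 36 Illumina MouseWG-6 arrays, on a linear scale without normalization, and a deposited detection p-value for each probe. The submitters' notes name GeneSpring 11.5.1. Here quantile normalization was run over 27 arrays (every region of the vehicle, Cpd-60 and SAHA groups) with limma 3.58.1 in R 4.3.3, and values were floored at 1 and put on a log2 scale. Quantile normalization gives all arrays 1 distribution, so a shift of most genes in 1 direction is not seen. Probes entered the test if all 3 arrays of the vehicle, the Cpd-60 or the SAHA group in the HIP had a detection p of 0.2 or less, which is one reading of the methods' filter on presence in all replicates. The 9 arrays of these groups were fitted with limma (lmFit and eBayes), and p-values were adjusted by Benjamini-Hochberg at 0.05. A p-value measures the spread between pools of 2 mice.

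Genes are named as in the array table. Of 30869 symbols, 21929 matched a current RefSeq symbol or synonym (GRCm38.p6). Where several probes of a gene were tested, the brightest stands for it. Its other probes are given for some genes only. Among those not given above, probes of Hist1h2bc (0.15), Rora (0.02) and Tef (0.01) did not pass, while those of Ctgf (0.50) and Gadd45g (0.25) did. Named are the 15 largest rises and 15 largest falls with 1.2-fold or more, no overlap of the groups and an unadjusted p under 0.05, clone names excluded, the genes the study names from its arrays, and members of 33 gene lists that passed or stand first in a list. The members, lists and tests were chosen with earlier results of these data known. Gfap, Lcn2, Klf9, Errfi1, Hif3a, Hba-a1, Alas2 and Slc4a1 and others that did not pass were named after their values were seen. Alternatives were limma's neqc normalization (offset 16), the HIP arrays normalized alone, all 36 arrays, median scaling, a stricter detection limit (0.01), no filter on detection, the vehicle and Cpd-60 arrays alone, a block for the BeadChip or for the replicate number, array weights, the methods' analysis of variance with Tukey's HSD, and each HIP pool left out in turn. Fits were tested on simulated data. Pools of the same number in the 2 groups also lay on the same BeadChip, but they are different mice, and the correlation of their deviations was 0.35, 0.05 and 0.48, under 0.1 for replicate 2, so they were not treated as pairs. Results for some genes are not reported here.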

Additional observations from a re-analysis of the deposited data

Results flagged for a closer look

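Gria2, the AMPA receptor subunit GluA2, was drawn out by opposite directions in 2 regions. All 3 Cpd-60 pools lay above all 3 vehicle pools in the HIP, where the log2 difference was 0.22 (SE 0.07), and below them in the NAc, where it was -0.26 (SE 0.11). The effect in the HIP minus that in the NAc was 0.48 (SE 0.13, unadjusted p = 0.00106 in limma), and its adjusted p was 1.00 over 18610 probes. In the PFC the difference was 0.18 (SE 0.08). Its other tested probes differed by 0.17 (SE 0.15) and 0.00 (SE 0.07) in the HIP. Groups of 3 pools are too small to mark a single pool as an outlier.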

How the results depend on the processing

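Every called named gene of the HIP comparison kept its direction under every alternative run, and 0 probes passed an adjusted p under 0.05 in limma or by Tukey's HSD except without Cpd-60 replicate 3 (0 to 91 with 1 pool left out; 1348 at an unadjusted p under 0.05). That unadjusted count became 892 with median scaling, 2222 without a detection filter, 2025 with the BeadChip as a block, 2903 with array weights, 607 with Tukey's HSD, and 879 to 3127 with 1 pool left out. At 1.2-fold, 193 rises and 205 falls became 566 and 643 with neqc normalization, 29 and 386 with median scaling, 470 and 456 with array weights, and 67 and 85 with Tukey's HSD, and ranged over 146 to 804 rises and 160 to 834 falls with 1 pool left out. Median scaling moved the median of all probes to -0.036 from -0.0018. The 19 rises of the glucocorticoid-induced list became 5 with median scaling and 5 with Tukey's HSD, and 10 to 22 with 1 pool left out. The 302 probes of the difference between regions became 181 at a detection p of at most 0.01, 1236 without a filter, 489 with the BeadChip as a block, and 227 to 514 with 1 pool left out. With fewer or more probes tested the counts change by construction, and for the others the cause was not tested. Among genes that did not pass, Rock2 turned from 0.021 to -0.018 with median scaling, and with 1 pool left out Rock2 ran from -0.018 to 0.060, Per2 from -0.20 to 0.0025, Igfbp5 from -0.17 to 0.035 and Mef2c from -0.21 to 0.033. Of 96 called named genes, 35 kept their call with median scaling, 34 with Tukey's HSD, 96 with the BeadChip as a block and between 56 and 87 with 1 pool left out.

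With the replicate block (pools of the same number as a block) 1761 probes passed an unadjusted p under 0.05, 259 rose and 232 fell at 1.2-fold, 0 passed an adjusted p, and 93 of the 96 genes kept their call. Cpd-60 replicates 1 and 3 correlated best with the vehicle pool of their own number and replicate 2 did not.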
